A study of Drosophila melanogaster with 6 samples.

Results

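Long noncoding RNAs were followed in the Malpighian tubules, the renal organs of Drosophila melanogaster, of flies with and without a gut tumour. They were the 48 genes with a FlyBase symbol beginning with lncRNA: or asRNA: that were selected on their level, at least 5 CPM (counts divided by the library total and scaled to a common size) in 3 or more of the 6 libraries. The count table held 17611 genes, of which 2440 had such a symbol. Of those, 1137 were at 0 in all libraries and 1303 had a count, so the 48 were 1.97% of the long noncoding RNA genes listed. Tumour flies carried 1 copy of UAS-yki3SA, which encodes an activated form of the growth regulator Yorkie, together with the driver esg-GAL4, the reporter UAS-GFP and the temperature-sensitive repressor tub-GAL80TS. Control flies had the driver, the reporter and the repressor but no yki3SA. All were virgins that spent 6 to 8 days at 18 °C, where the repressor is active, followed by 8 days of induction at 29 °C. The number of tubules lysed was 80 per genotype. The driver acts in esg-positive cells, which tubules also hold, so a direct effect of yki3SA in the tubule and an effect of the gut tumour cannot be told apart. Each group had 3 libraries of poly-A selected RNA. The labels do not say that these came from separate cultures, so p-values measure only the spread between libraries, which may be technical.

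Long noncoding RNAs are transcripts without a long open reading frame, some of which act as scaffolds for proteins, some as precursors of small RNAs, and many of which have no assigned function. The best known in the fly are roX1 and roX2, which join the male-specific lethal (MSL) proteins on the X chromosome of males and raise its transcription to match females, and Hsromega, a stress-induced nuclear RNA that organises the omega speckles, stores of RNA-binding proteins. Genes named only by CR and a number are given no function here, beyond the small RNAs that the annotation places in some of them. Poly-A selection captures only polyadenylated forms, so the levels below are those of polyadenylated RNA. Since the tubules were sequenced in bulk, fewer cells of a type and less RNA per cell cannot be told apart.

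Library totals lay between 34640437 and 49338340 counts in tumour and between 36088638 and 45728599 counts in control libraries, and the limit set by a count of 0, which is 3 counts, lay between 0.0608 and 0.0866 CPM by counting error only. Markers of the tubule itself were abundant. The summed level of 8 principal cell genes was between 9136 and 10554 CPM in tumour and between 12938 and 16420.0 CPM in control libraries. By edgeR 4 of these 8 were lower and none higher. Of 6 stellate cell genes 2 were lower and none higher. Of all genes tested 14.8% rose and 13.0% fell. Of the markers of other tissues, some differed with the groups and some did not. The 11 midgut enterocyte genes summed to 15.7 to 123 CPM in tumour against 213 to 656 CPM in control libraries, with 7 of 11 tested lower. Fat body genes summed to 181 to 357 CPM in tumour against 2440.4 to 5797 CPM in control libraries, with 4 of 6 lower. Yp1, Yp2, Yp3 and apolpp were those lower, while Fbp1 and the gene to did not pass. In control libraries the yolk protein genes Yp1, Yp2 and Yp3 averaged 599, 1320 and 1777 CPM. Fbp1 averaged 1.11 CPM in tumour and 0.288 CPM in control libraries. Female germline and eggshell genes summed to 4.33 to 42.9 CPM against 102 to 194 CPM, with 4 of 8 lower by edgeR and 1 by limma-voom. The 4 were the eggshell genes Cp38, Cp36, Vm26Aa and Cp15. The germline genes vas, osk, bam and otu did not pass, and otu was highest in tumour replicate 3 at 31.0 CPM. Visceral muscle genes summed to 457 to 568 CPM in tumour against 462 to 548 CPM in control libraries, with 1 of 6 higher, and 1 of 4 enteroendocrine genes was higher. None of 5 neuronal genes passed by edgeR, 1 passed by DESeq2 and by limma-voom, and 1 had an unadjusted p under 0.05 by edgeR. Genes of testis and male accessory gland were near 0 in both groups, with sums of 0.159 to 0.490 CPM in tumour and 0.0253 to 0.364 CPM in control libraries, none of the 7 passed the filter for testing, and Mst84Da was at 0 in all libraries. The first principal component held 58.8% of the variance and separated the groups, and on the second, with 14.3%, tumour replicate 3 stood apart from the other tumour libraries.

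**Figure D1:**
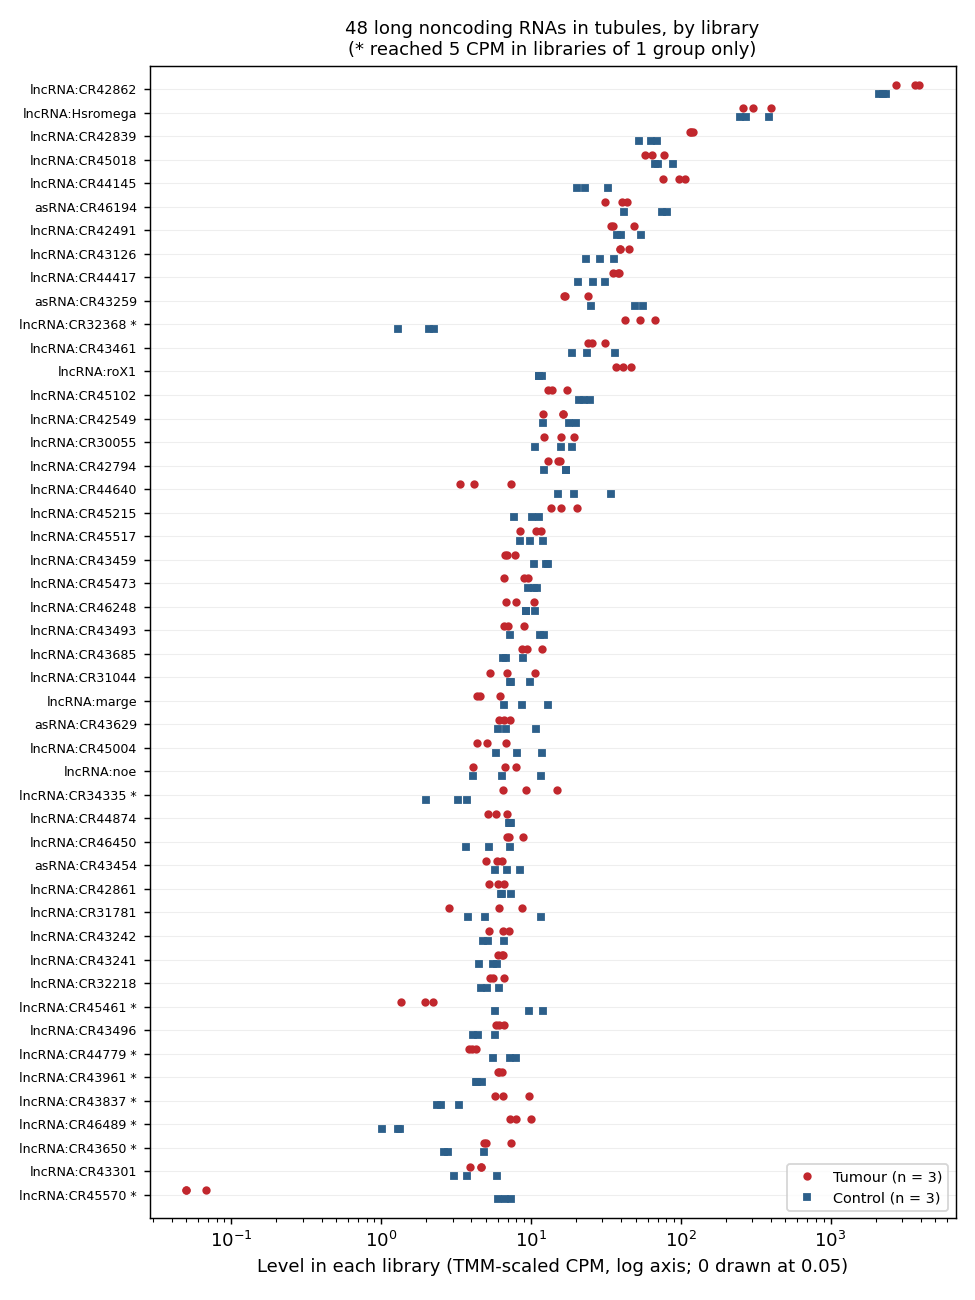
Level of each of the 48 long noncoding RNAs in every library, on a log10 axis of TMM-scaled CPM, with tumour libraries and control libraries as points of different colour and genes ordered by their mean, and with a level of 0 drawn at 0.05 CPM. The most abundant, CR42862, had a mean of 2824 CPM, and 28 of the 48 had a mean under 10 CPM.

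The levels of the 48 RNAs covered a wide range, and 1 gene dominated them. From here on levels are CPM scaled by TMM, the trimmed mean of M-values, and the mean over the 6 libraries had a median of 8.81 CPM and ran between 3.37 and 2824 CPM. It was under 10 CPM for 28 RNAs, between 10 and 50 CPM for 14 and over 50 CPM for 6. CR42862 was at 2717, 3888 and 3660.1 CPM in tumour replicates 1, 2 and 3, against 2106, 2242 and 2332 CPM in control replicates 1, 2 and 3, which placed it 28th of 17611 genes by level. Hsromega came next at 398, 259.7 and 305 CPM in tumour against 272, 250.1 and 387 CPM in control libraries, 573rd of all genes. The rule used these levels, so they are a description. Per kilobase of annotated exon the order changed, because Hsromega is the longest of the set at 21710 bases. On that scale CR42862 stayed first at 515 CPM per kilobase, the median of the 48 was 7.06, and Hsromega was at 14.4 CPM per kilobase. Just inside the threshold lay CR43301, CR44779 and CR43650, with a third-highest unscaled level of 5.04, 5.23 and 5.24 CPM, and just outside lay CR44756, CR43334 and asRNA:CR45620 with 4.91, 4.90 and 4.63 CPM.

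Together the 48 RNAs took, before any scaling, 0.427%, 0.533% and 0.564% of all counts in tumour libraries against 0.268%, 0.296% and 0.317% in control libraries, with no overlap between groups. CR42862 alone supplied between 67.4% and 78.8% of these counts in tumour and between 67.2% and 71.3% in control libraries. The sum includes the RNAs that reached the threshold in tumour libraries only, which the rule admitted because they were high there. On the TMM scale the 39 RNAs that reached 5 CPM in both groups summed to 3909, 4846 and 4713 CPM in tumour against 3062, 3112 and 3430.2 CPM in control libraries, again without overlap. Without CR42862 they summed to 1192, 958 and 1053 CPM in tumour against 956, 871 and 1098 CPM in control libraries, and the groups overlapped.

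Of the 48, 28 reached 5 CPM in all 6 libraries, 3 in 5, 6 in 4 and 11 in exactly 3, in CPM before TMM scaling as in the rule. By group, 39 reached it in at least 1 library of both groups, 6 in tumour libraries only and 3 in control libraries only. Without TMM scaling the median log2 fold change of all genes lay 0.29 higher, which favoured entry through tumour libraries. The 9 that reached 5 CPM in 1 group only had to differ and are given without a test further on. Among the 39, 6 rose and 4 fell in tumour tubules at an adjusted p of at most 0.05 by the edgeR quasi-likelihood test, fitted on all 9789 genes tested with Benjamini-Hochberg adjustment, and 29 did not pass. Without tumour replicate 3, control replicate 1 or control replicate 3 the number that rose was 3, and without tumour replicate 2, tumour replicate 3 or control replicate 3 the number that fell was 2. The 6 and 4 were 15.4% and 10.3% of the 39, beside 14.8% of all genes tested that rose and 13.0% that fell, so neither share stood far from the background. Their median log2 fold change was -0.11, against 0.08 for all genes tested. Tumour and control libraries did not overlap for 9 of the 39 with tumour higher and for 6 with tumour lower, against 26.8% and 20.1% of all genes. Among 6805 protein-coding genes that met the same level threshold, 19.1% rose and 14.8% fell. The 290 other long noncoding RNA genes that could be tested, with a median level of 0.653 CPM, rose in 7.24% and fell in 7.93% of cases.

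**Figure D2:**
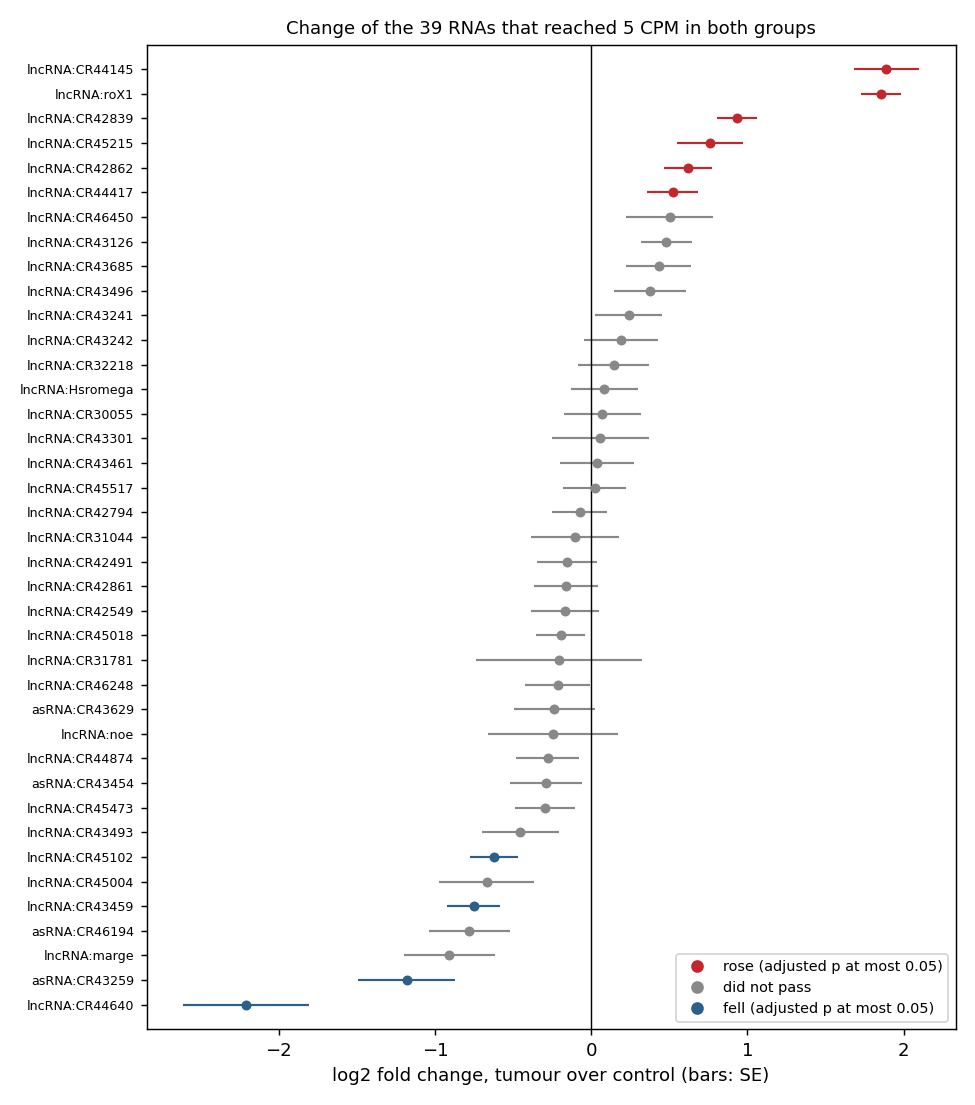
Log2 fold change of tumour over control for the 39 long noncoding RNAs that reached 5 CPM in both groups, with bars for the standard error, coloured by whether they rose, fell or did not pass an adjusted p of 0.05. CR44145 and roX1 lie farthest to the right at 1.89 and 1.86, and CR44640 farthest to the left at -2.21.

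The largest rise among the 39 belonged to CR44145 (FBgn0264994). It was at 97.7, 76.4 and 107 CPM in tumour libraries against 23.1, 32.6 and 20.3 CPM in control libraries. The lowest tumour library lay well above the highest control library. Its log2 fold change was 1.89 ± 0.21 (SE, adjusted p = 6.79e-04, edgeR), a 3.70-fold higher level, and per kilobase of exon the tumour mean was 87.5 against 23.6 CPM in control. In the Ensembl annotation (build BDGP6.54, which is not stated to be the build on which reads were counted) it lies on chromosome 2L, 11736402 to 11737541, plus strand, in 2 exons that touch no other gene.

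The dosage compensation RNA roX1 (FBgn0019661) rose by a similar factor. Its levels were 37.0, 46.4 and 41.5 CPM in tumour libraries against 11.2, 11.9 and 11.3 CPM in control libraries, and the control libraries were almost alike. The mean was 41.6 ± 4.70 CPM in tumour and 11.5 ± 0.382 CPM in control tubules (SD, n = 3 each), with a log2 fold change of 1.86 ± 0.13 (adjusted p = 9.59e-05, edgeR). With the exons of its 5 annotated transcripts merged, roX1 is 1 exon block of 5468 bases on chromosome X, 3857230 to 3862697, minus strand. Its sister RNA roX2 had 10 counts in all, with 0.163, 0 and 0.0690 CPM in tumour libraries and 0 in every control library, and was too low to test. At the RNA level, the genes listed for the MSL complex gave no call. They were msl-1, msl-2, msl-3, mle, mof and Clamp. Of these 6 none rose or fell by edgeR, DESeq2 or limma-voom, and none had an unadjusted p under 0.05 by edgeR. msl-2, whose protein is made only in males because Sex-lethal blocks its translation in females, averaged 15.3 CPM in tumour and 17.0 CPM in control tubules (adjusted p = 0.413, edgeR).

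The other 4 that rose changed by less than 2-fold. CR42839 (FBgn0262028) was at 116, 117 and 120.0 CPM in tumour against 63.7, 52.3 and 69.0 CPM in control libraries, a log2 fold change of 0.93 ± 0.13 (adjusted p = 0.00155, edgeR). The tumour libraries were within a few CPM of each other. CR45215 was at 20.3, 13.6 and 15.8 CPM in tumour against 7.75, 11.3 and 10.2 CPM in control libraries (log2 fold change 0.76 ± 0.21, adjusted p = 0.0303, edgeR). It shares 185 exon bases with the gene Ctr1B on the same strand, so the 2 may share reads. Ctr1B averaged 168 CPM in tumour and 140 CPM in control tubules and did not pass (adjusted p = 0.287, edgeR). CR42862, the most abundant, had a log2 fold change of 0.62 ± 0.15 (adjusted p = 0.0213, edgeR), with the lowest tumour library above the highest control library. CR44417 was at 35.4, 37.9 and 38.9 CPM in tumour against 20.6, 31.4 and 26.2 CPM in control libraries (log2 fold change 0.52 ± 0.16, adjusted p = 0.0454, edgeR). For all 6 that rose, every tumour library lay above every control library. The calls of CR44145, roX1 and CR42839 held in all 12 alternatives of scaling, filter, block, tool and left-out library. The call of CR42862 was lost without any single library except tumour replicate 1, with adjusted p between 0.0528 and 0.0736, while its tumour-higher direction stayed. CR44417 lost its call without tumour replicate 1 (0.115), 2 (0.105) or 3 (0.110) and without control replicate 1 (0.102) or 3 (0.116). CR45215 lost it without tumour replicate 1 (0.127) or 3 (0.0573) and without control replicate 1 (0.0869) or 3 (0.0762).

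Among the 4 that fell, CR44640 (FBgn0265851, chromosome 2R, 20302195 to 20302995, plus strand, 1 exon) showed the largest difference. It was at 7.32, 4.17 and 3.38 CPM in tumour against 34.0, 15.1 and 19.3 CPM in control libraries, a log2 fold change of -2.21 ± 0.40 (adjusted p = 0.0084, edgeR). Every tumour library lay below every control library, and the call held in all 12 alternatives. CR44640 met the rule through its control libraries, however. Before scaling all 3 of them reached 5 CPM, against 1 tumour library, so the rule favoured a fall. The antisense RNA asRNA:CR43259 was at 16.6, 24.2 and 17.0 CPM in tumour against 56.3, 25.0 and 49.6 CPM in control libraries (log2 fold change -1.18 ± 0.31, adjusted p = 0.0314, edgeR). Control replicate 2 was close to tumour replicate 2, so the groups were barely separate. CR45102 was at 17.5, 12.9 and 13.8 CPM in tumour against 20.9, 24.6 and 22.6 CPM in control libraries (log2 fold change -0.62 ± 0.16, adjusted p = 0.0214, edgeR). The call of asRNA:CR43259 was lost without tumour replicate 1 (0.0839) or 3 (0.0912) and without control replicate 1 (0.0897) or 3 (0.0913), and that of CR45102 without tumour replicate 2 (0.0729) or 3 (0.0622) and control replicate 2 (0.0605) or 3 (0.0647). Several of the midgut and fat body markers and the eggshell markers given above were also lower in tumour libraries, and their part in these falls was not tested.

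The last of the 4, CR43459 (FBgn0263413), is the annotated host of a pair of microRNAs. The gene is 1 exon block of 7596 bases on chromosome 3R, 10093761 to 10101356, plus strand. It holds the precursors of mir-277, known in the fly for restraining branched-chain amino acid breakdown, and mir-34, known for its role in the ageing brain. It was at 7.78, 6.74 and 6.90 CPM in tumour against 10.54, 12.6 and 12.9 CPM in control libraries. The groups were separate, with tumour libraries close together, and the log2 fold change was -0.75 ± 0.17 (adjusted p = 0.0144, edgeR). The call was lost without tumour replicate 2 (0.0527) or control replicate 3 (0.0608). The microRNAs themselves have no row in the count table, and poly-A selection of long RNA does not measure them, so the values are those of the host transcript.

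Other host transcripts of microRNAs were also among the 48. In the annotation 5 of the 48 (10.4%) hold 8 microRNA precursors in their exons on the same strand. Of the 2392 other long noncoding RNA genes 28 do (1.17%), a description with no test. The level threshold was not scaled for length. The 5 hosts have between 2149 and 21710 exon bases, against a median of 662 for the other long noncoding RNA genes. The part of length in the contrast was not tested. Besides CR43459 the hosts were CR31044, asRNA:CR46194, CR43650 and Hsromega. CR31044 holds mir-279 and mir-996, close relatives that pattern fly sensory neurons, and was at 10.6, 6.87 and 5.35 CPM in tumour against 7.25, 7.39 and 9.87 CPM in control libraries (adjusted p = 0.813, edgeR). Its groups overlapped. asRNA:CR46194, which holds mir-281-1 and mir-281-2, was at 43.5, 31.4 and 40.4 CPM in tumour against 80.7, 41.6 and 75.5 CPM in control libraries and did not pass (log2 fold change -0.78 ± 0.26, adjusted p = 0.0587, edgeR), though it passed in 4 of the 12 alternatives, among them without control replicate 2 (0.00393). It also shares exon sequence with Oda, the antizyme gene of polyamine control, and SmD3, a spliceosome core gene. CR43650 holds mir-8, the fly relative of the miR-200 family and a regulator of body growth. Its TMM-scaled levels were 7.32, 4.85 and 5.02 CPM in tumour libraries against 2.79, 2.62 and 4.83 CPM in control libraries. Unscaled, as the rule used them, they were 7.77, 5.24 and 5.90 CPM against 2.41, 2.47 and 4.41 CPM. On that scale it reached the threshold in tumour libraries only. A small nucleolar RNA, snoRNA:Psi18S-531, lies in CR42491 within the ribosomal protein gene RpL22. CR42491 was at 48.9, 35.3 and 34.3 CPM in tumour against 37.3, 40.1 and 54.5 CPM in control libraries and did not pass (adjusted p = 0.593, edgeR).

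Of the RNAs that reached 5 CPM in 1 group only, CR32368 differed most on the tumour side. It was at 67.1, 53.3 and 42.6 CPM in tumour against 2.25, 1.299 and 2.10 CPM in control libraries. That was a 28.8-fold higher level, and per kilobase its tumour level of 133 CPM was second to CR42862. The gene is 1 exon of 410 bases on chromosome 3L, 7915437 to 7915846, plus strand, and touches no other annotated gene. CR46489, of 2 exon blocks on chromosome 2R, was at 7.21, 7.89 and 9.99 CPM in tumour against 1.01, 1.299 and 1.34 CPM in control libraries. In tumour libraries CR46489 was 6.87-fold higher. Its nearest protein-coding gene lies 117071 bases away. CR34335 was at 14.97, 6.51 and 9.28 CPM in tumour against 3.72, 2.002 and 3.28 CPM in control libraries, and CR43837 at 9.66, 5.72 and 6.47 CPM against 2.51, 3.30 and 2.37 CPM. CR43961 differed least, with 6.12, 6.37 and 5.98 CPM in tumour against 4.69, 4.36 and 4.28 CPM in control libraries, and entered on the threshold rather than on a large difference.

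On the control side, CR45570 was close to absent from tumour tubules. Its level was 0, 0.0680 and 0 CPM in tumour against 7.40, 6.71 and 6.04 CPM in control libraries, from 3 counts in all in tumour and 739 in control libraries. By pooled counts over library totals, before TMM scaling, control libraries held 254 times the tumour level. That ratio rests on the 3 tumour counts, so its size is uncertain, and the rule fixed its direction. CR45570 lies on chromosome 3R, 30404429 to 30404989. Of its 561 exon bases, 52 (9.27%) fall in a roo transposable element, so reads may be shared with other copies. CR45461 was at 2.23, 1.95 and 1.36 CPM in tumour against 12.01, 5.76 and 9.66 CPM in control libraries. CR44779 was at 4.30, 3.83 and 4.04 CPM in tumour against 7.95, 5.55 and 7.26 CPM in control libraries. In unscaled CPM the rule fixed the separation of all 9 in advance. After TMM scaling their groups stayed separate, though CR43650 was at 4.85 CPM in tumour replicate 2 and 4.83 CPM in control replicate 3.

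**Figure D3:**
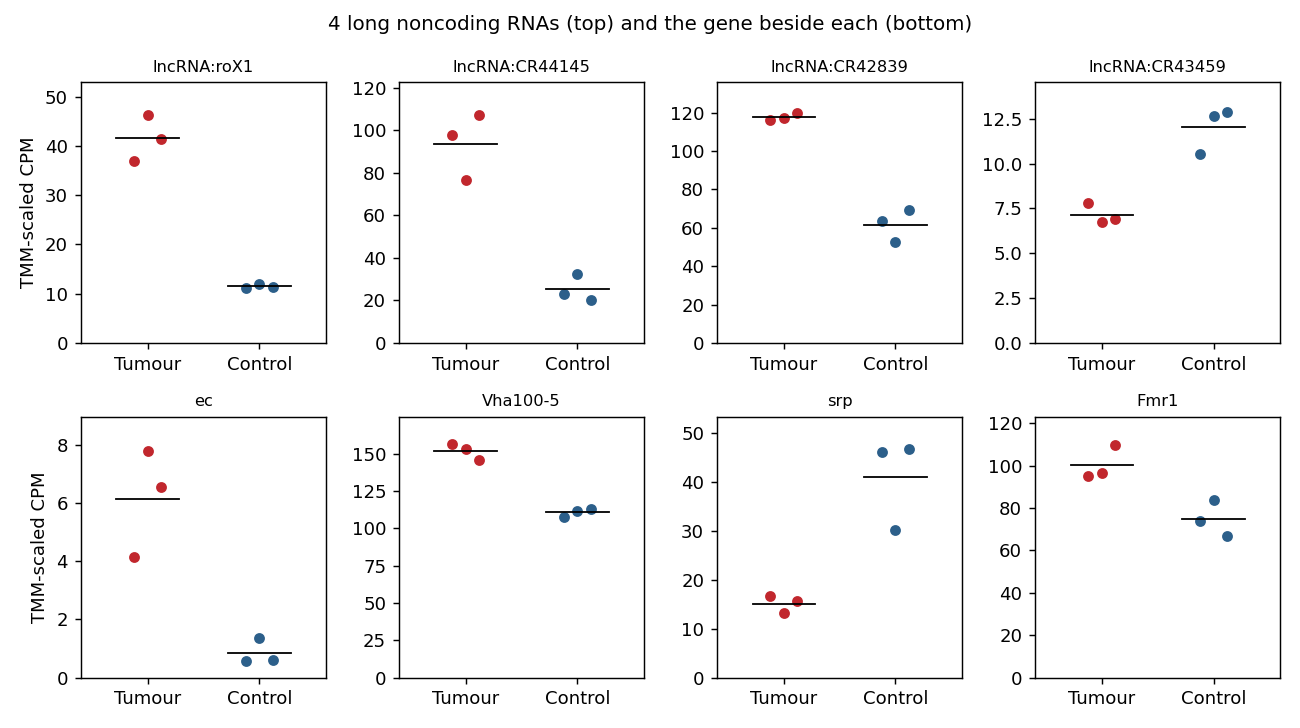
TMM-scaled CPM, on linear axes from 0, in each tumour library (left) and control library (right) for 4 long noncoding RNAs (top) and the protein-coding gene beside each (bottom), with a line at the group mean. roX1 and ec are both higher in tumour libraries, whereas CR42839 is higher and srp lower in them.

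The 29 that did not pass had log2 fold changes between -0.91 and 0.50, none beyond 2-fold, with adjusted p between 0.0506 and 0.951 (edgeR), and 18 lay within 0.25 of 0. Their direction depended on the scaling for some: with library totals in place of TMM the median of all genes moved up by 0.29 log2, and 12 of the 29 changed sign. Hsromega did not separate the groups (log2 fold change 0.08 ± 0.21, adjusted p = 0.803, edgeR), with the highest value in tumour replicate 1 and the next in control replicate 3. None of 10 heat shock and stress genes tested passed by edgeR, DESeq2 or limma-voom, and none had an unadjusted p under 0.05 by edgeR. Of 8 genes for omega speckle proteins none passed by edgeR or limma-voom, 1 passed by DESeq2, and 2 had an unadjusted p under 0.05 by edgeR. The RNA named marge came closest to a call, with 6.18, 4.60 and 4.35 CPM in tumour against 13.0, 8.74 and 6.59 CPM in control libraries (log2 fold change -0.91 ± 0.29, adjusted p = 0.0506, edgeR), and it passed in 6 of the 12 alternatives, among them without control replicate 3 (0.0402). noe was at 7.97, 6.74 and 4.09 CPM in tumour against 4.08, 11.7 and 6.38 CPM in control libraries (adjusted p = 0.703, edgeR). CR31781 varied most among libraries of a group, with a coefficient of variation of 49.4% in tumour and 62.6% in control libraries, while the median over the 39 was 16.4% in tumour and 19.5% in control libraries.

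Several of the more abundant RNAs had no call. CR45018 was at 76.8, 63.9 and 57.8 CPM in tumour against 67.2, 89.4 and 70.5 CPM in control libraries (adjusted p = 0.389, edgeR), and it shares 1433 exon bases with IP3K2, an inositol phosphate kinase gene. CR43126, which lies 784 bases from the forkhead transcription factor gene fkh, was at 44.8, 39.1 and 39.5 CPM in tumour against 28.9, 36.0 and 23.5 CPM in control libraries. Its tumour libraries all lay above the control libraries, and the log2 fold change of 0.48 ± 0.17 did not pass (adjusted p = 0.0626, edgeR), though it passed in 3 of the 12 alternatives, among them without control replicate 2 (0.0196). CR43461 was at 31.1, 25.5 and 24.1 CPM in tumour against 23.6, 18.9 and 36.3 CPM in control libraries, with overlap (adjusted p = 0.930, edgeR). It lies within CG3168 on the opposite strand, whose level was between 13236 and 15503 CPM in tumour and between 15194 and 19789 CPM in control libraries.

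The 4 antisense RNAs all lie over exons of a gene on the other strand. Besides asRNA:CR43259 and asRNA:CR46194, asRNA:CR43454 shares 270 exon bases with Nha2, a sodium/proton antiporter gene, and asRNA:CR43629 shares 125 with CG31522. asRNA:CR43454 was at 5.01, 5.94 and 6.42 CPM in tumour against 8.51, 6.90 and 5.77 CPM in control libraries, with overlap (adjusted p = 0.391, edgeR). Nha2 was at 229, 275 and 238 CPM in tumour against 415, 377 and 328 CPM in control libraries and fell (log2 fold change -0.60 ± 0.14, adjusted p = 0.0150, edgeR). asRNA:CR43629 was at 7.29, 6.58 and 6.10 CPM in tumour against 6.00, 6.76 and 10.8 CPM in control libraries and did not separate the groups (adjusted p = 0.537, edgeR). CG31522 fell, with 103, 108 and 78.2 CPM in tumour against 199, 131 and 211 CPM in control libraries (log2 fold change -0.91 ± 0.21, adjusted p = 0.0155, edgeR).

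Many of these genes sit inside or beside a protein-coding gene. Of the 48, 24 overlap the span of a protein-coding gene and 14 share exon bases with one. Whether counting used the strand is not given in the sources used here, and an overlapping pair may share reads, and its values are uncertain. For 36 of the 39 a protein-coding partner could be tested, the overlapping gene or else the nearest. In 3 pairs both rose, in 1 both fell, in 2 they went opposite ways, in 4 the RNA alone and in 9 the partner alone passed, and in 17 neither did. Of the 36 partners 7 rose and 8 fell, beside 14.8% of all genes tested that rose and 13.0% that fell. Across the 13 pairs with shared exon bases the log2 fold changes had a Pearson r of 0.74 and a Spearman rho of 0.58, which fell to 0.39 and 0.47 without roX1. Across the 15 pairs that did not overlap they were 0.05 and 0.18. The pairs share libraries and, where exons overlap, possibly reads, so these values are descriptions.

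**Figure D4:**
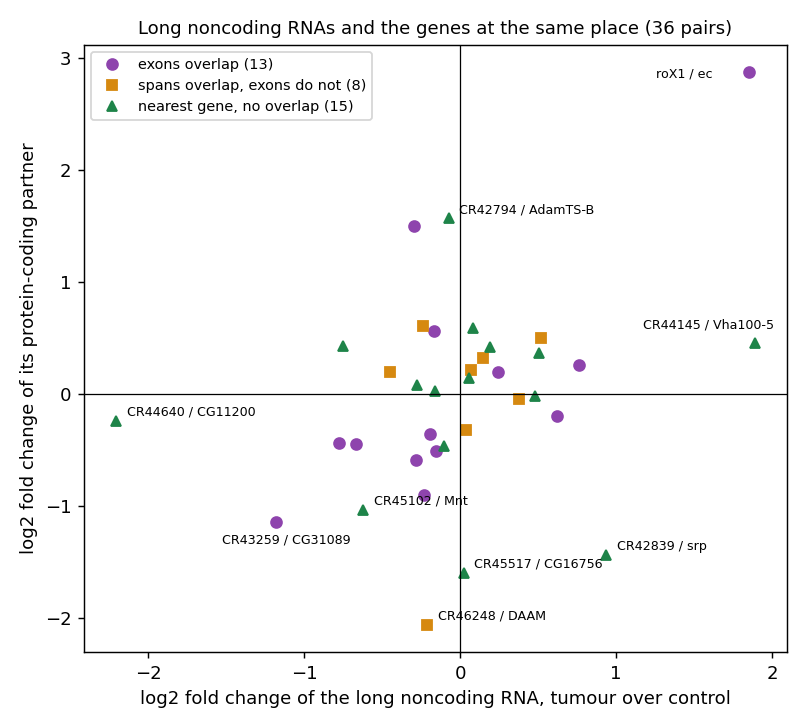
Log2 fold change of tumour over control for 36 long noncoding RNAs (x axis) and their protein-coding partners (y axis), with the marker showing whether exons overlap (13 pairs), only spans overlap (8) or the partner is the nearest gene (15). The pair of roX1 and ec lies at the upper right, and CR42839 with srp at the lower right.

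The partner of roX1 is ec (echinus), a gene of cell death in the developing eye, which lies on the opposite strand and shares 392 exon bases with it. ec was at 4.14, 7.78 and 6.55 CPM in tumour against 0.557, 1.35 and 0.607 CPM in control libraries and rose (log2 fold change 2.87 ± 0.45, adjusted p = 0.00341, edgeR). Its level in CPM was well under that of roX1 in every library. CR44145 lies 1407 bases from Vha100-5, which encodes a membrane subunit of the vacuolar proton pump and is on the same strand. Vha100-5 was at 156, 153 and 146 CPM in tumour against 108, 112 and 113 CPM in control libraries and rose by less (log2 fold change 0.45 ± 0.10, adjusted p = 0.0127, edgeR). CR44417 lies within the span of Mapmodulin on the opposite strand, and Mapmodulin also rose (log2 fold change 0.50 ± 0.15, adjusted p = 0.0453, edgeR).

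Opposite changes were seen at CR42839 and at CR43459. CR42839 lies 236 bases from srp (serpent), the GATA factor of blood and fat body, on the opposite strand. srp was at 16.6, 13.2 and 15.6 CPM in tumour against 46.3, 30.3 and 46.8 CPM in control libraries and fell (log2 fold change -1.44 ± 0.19, adjusted p = 0.00145, edgeR), while CR42839 rose. CR43459 lies 64 bases from Fmr1, the fly gene of the fragile X RNA-binding protein, which was at 95.2, 96.7 and 109.5 CPM in tumour against 73.7, 83.9 and 66.9 CPM in control libraries and rose (log2 fold change 0.43 ± 0.12, adjusted p = 0.0359, edgeR). Both groups of libraries were separate for each of these 4 genes. srp is also on the haemocyte marker list, of which it was the only one of 4 tested genes to pass by edgeR. The fat body markers Yp1, Yp2, Yp3 and apolpp were lower in the same tumour libraries. The part of either tissue in the fall of srp was not tested.

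CR45102 and its neighbour Mnt, the antagonist of Myc, 185 bases away on the same strand, both fell. Mnt was at 27.8, 19.4 and 21.5 CPM in tumour against 47.0, 43.6 and 50.3 CPM in control libraries (log2 fold change -1.04 ± 0.16, adjusted p = 0.00248, edgeR). The gene CG31089, which shares 305 exon bases with asRNA:CR43259 on the opposite strand, was at 26.4, 26.0 and 21.7 CPM in tumour against 73.0, 18.9 and 72.3 CPM in control libraries and did not pass (adjusted p = 0.140, edgeR). Control replicate 2 was the low control library for both genes of that pair. Large changes also occurred beside RNAs that did not pass. DAAM, a formin gene whose span holds CR46248, fell (log2 fold change -2.06 ± 0.15, adjusted p = 1.01e-04, edgeR), while CR46248 averaged 8.41 CPM in tumour and 9.75 CPM in control tubules. AdamTS-B, a secreted metalloprotease gene 897 bases from CR42794, rose (1.57 ± 0.11, adjusted p = 9.72e-05, edgeR), while CR42794 averaged 14.7 CPM in tumour and 15.5 CPM in control tubules.

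Of the RNAs that reached the threshold in 1 group only, 6 had a partner that could be tested. The rule fixed the direction of these RNAs, so the values are set side by side with nothing read from them; 14.8% of all genes rose and 13.0% fell. CR34335 lies within DIP-alpha, a cell-surface immunoglobulin gene on the same strand, which was at 4.30, 4.76 and 4.57 CPM in tumour against 1.17, 0.162 and 0.273 CPM in control libraries and rose (log2 fold change 3.07 ± 0.69, adjusted p = 0.0144, edgeR). CR45461 lies 1544 bases from Ttc30, an intraflagellar transport gene, which was at 19.7, 15.2 and 17.2 CPM in tumour against 77.3, 58.5 and 66.2 CPM in control libraries and fell (-1.95 ± 0.15, adjusted p = 1.57e-04, edgeR). CG3655, which shares 94 exon bases with CR44779 on the opposite strand, was at 126, 134 and 116 CPM in tumour against 201, 140.0 and 199 CPM in control libraries and fell (-0.52 ± 0.16, adjusted p = 0.0428, edgeR). CG14629, whose span overlaps CR44779 on the same strand, did not pass (0.13 ± 0.16, adjusted p = 0.577, edgeR). Tmem43, 317 bases from CR32368, did not pass, with 38.7, 38.3 and 34.0 CPM in tumour against 31.0, 35.99 and 29.0 CPM in control libraries (adjusted p = 0.254, edgeR). Inx2 beside CR43837 and Ten-a, whose span overlaps CR43961, did not pass either (adjusted p = 0.245 and 0.0699, edgeR). No partner of CR46489 or CR45570 could be tested.

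In place and size the annotation describes the 48 RNAs as follows. Of them 16 lie on chromosome X, 13 on 3R, 8 on 2L, 6 on 2R and 5 on 3L. The X share was 33.3%, against 12.2% of the other 2392 long noncoding RNA genes and 16.7% of protein-coding genes at the same level threshold. On X, 1 of the 12 that reached 5 CPM in both groups rose (roX1) and 1 fell (CR45102), while 5 rose and 3 fell among 27 on the autosomes. Of all 1614 X-linked genes tested 229 rose and 197 fell. Annotated exons had a median of 1394 bases, between 361 and 21710, against a median of 662 bases for the other long noncoding RNA genes. The level threshold was not scaled for length, so at the same level per kilobase a longer gene met it more easily. A single exon block was annotated for 60.4% of the 48, against 64.8% of the other long noncoding RNA genes. Transposable element sequence lay in the exons of 5, with the largest share in CR43241, where INE-1 covers 28.5% of exon bases, and in CR43493, where FB covers 23.6%.

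Genes that process noncoding RNA were counted beside the 14.8% of all genes tested that rose and the 13.0% that fell. Because these lists were chosen with earlier results of these data known, the counts are descriptions. Of 9 genes for box C/D and H/ACA proteins, which assemble with small nucleolar RNAs, 8 rose and none fell, with a median log2 fold change of 0.82 over the list, against 0.08 over all genes. NHP2 rose by 1.06 ± 0.19 (adjusted p = 0.00535), Nop56 by 0.79 ± 0.16 (adjusted p = 0.00874) and nop5 by 0.82 ± 0.18 (adjusted p = 0.0119, edgeR). Of 11 genes of the nuclear RNA exosome, which trims and degrades noncoding transcripts, 4 rose and none fell, with a list median of 0.42. Ski6 averaged 18.6 CPM in tumour and 6.39 CPM in control tubules (1.54 ± 0.25, adjusted p = 0.00348), and Csl4 averaged 13.4 CPM in tumour and 6.03 CPM in control tubules (1.15 ± 0.19, adjusted p = 0.00372, edgeR). In the lists of nonsense-mediated decay and small RNA biogenesis the share that rose was near that of all genes. Of 7 nonsense-mediated decay genes 1 rose, Upf2 (0.44 ± 0.11, adjusted p = 0.0188, edgeR). Of 9 small RNA biogenesis genes 1 rose, Dcr-2, the dicer of small interfering RNAs, at 131, 129 and 121 CPM in tumour against 57.0, 57.6 and 49.0 CPM in control libraries (log2 fold change 1.22 ± 0.11, adjusted p = 3.04e-04, edgeR).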

How the data were processed

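Poly-A RNA was sequenced from 3 tumour and 3 control libraries of Malpighian tubules. The values the authors deposited are raw counts of reads for each gene, 1 column a library. TopHat, Cufflinks and HTSeq were used, per the submitters' processing notes. Versions, genome build, annotation and strand setting: not given in the sources used here. Symbols came from a FlyBase identifier table, with 59 of 17611 genes unmatched, and places from the Ensembl 115 annotation (BDGP6.54).

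Genes were filtered with filterByExpr (minimum count 10, minimum total 15), leaving 9789, scaled by TMM and tested, two-sided, with the robust quasi-likelihood test of edgeR 4.0.16 in R 4.3.3, with Benjamini-Hochberg adjustment over all genes and a threshold of 0.05. The SE is the log2 fold change divided by the square root of F, and the biological coefficient of variation was 30.8%. Python 3.11.15, pandas 2.3.3, numpy 2.4.6 and matplotlib 3.10.9 were used for summaries. Tested on simulated data, the script recovered changed genes.

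The members and the gene lists were chosen with earlier results of these data known. Genes named were those with a proper name, the 8 most abundant, those past the threshold, those that reached 5 CPM in 1 group only, those nearest the threshold, their partners, and the genes of each list with the smallest adjusted p or, for markers, the highest level. Alternatives were RLE and library-total scaling, no filter, a replicate block, DESeq2 1.42.0, limma-voom (limma 3.58.1), leaving out each library, other level thresholds, and leaving out RNAs with shared exons. Dl and nos, on the marker lists, had no match and were not used here. No nucleotide sequence is printed.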

Additional observations from a re-analysis of the deposited data

How the results depend on the processing

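Of the 10 calls among the 39 long noncoding RNAs that reached 5 CPM in both groups, 4 held in all 12 alternatives of scaling, filter, block, tool and left-out library (CR44145, roX1 and CR42839, which rose, and CR44640, which fell), and none of the 10 changed direction. The number that rose was 6 and lay between 3 and 6 when 1 library was left out, with 3 without tumour replicate 3, control replicate 1 or control replicate 3. The number that fell was 4 and lay between 2 and 4, with 2 without tumour replicate 2, tumour replicate 3 or control replicate 3. With library totals as the scaling, 8 rose and 2 fell. With RLE or DESeq2, 5 rose and 6 fell, with limma-voom 6 and 5, and with no filter 7 and 4. With the replicate block, 5 rose and 5 fell, but libraries of the same number did not deviate together (correlations 0.082, -0.083 and 0.058), so the numbers share only a number. At 10 CPM, 6 of 20 rose and 2 fell, at 1 CPM 13 of 140 rose and 18 fell, and at 5 CPM in all 6 libraries 6 of 28 rose and 3 fell. Leaving out RNAs with shared exons left 3 that rose and 2 that fell of 23. CR44417 lost its call with RLE (0.0707) and DESeq2 (0.0638), CR45102 and CR43459 with library totals (0.141 and 0.0857), asRNA:CR43259 without the filter (0.0582) and with the block (0.0962), and CR45215 with the block (0.0689), all adjusted p. The cause was not tested.

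Of the 29 without a call, 4 passed in at least 1 alternative. marge passed with RLE (0.0431), no filter (0.0472), the block (0.0351), DESeq2 (0.0102), limma-voom (0.0463) and without control replicate 3 (0.0402). asRNA:CR46194 passed with RLE (0.0482), the block (0.0144), DESeq2 (0.00504) and without control replicate 2 (0.00393). CR43126 passed with library totals (0.0120), no filter (0.0489) and without control replicate 2 (0.0196), and CR43685 with library totals (0.0428), all adjusted p. Of the same 29, 18 changed sign in at least 1 alternative, where log2 fold changes were small. With library totals the log2 fold changes were 0.0796 for CR45018, 0.0785 for CR31781, 0.12 for CR42491, 0.13 for CR42549 and CR42861, 0.22 for CR42794, 0.0597 for CR46248, 0.17 for CR31044, 0.0433 for asRNA:CR43629, 0.0082 for noe, 5.4e-05 for CR44874 and 0.0113 for asRNA:CR43454. With RLE they were -0.0295 for CR43461, -0.0439 for CR45517 and -0.0093 for CR43301, and with DESeq2 -0.0238 for CR43461, -0.0396 for CR45517 and -0.0030 for CR43301. Leaving out each library in turn gave ranges of -0.16 to 0.30 for Hsromega, -0.39 to 0.0292 for CR42491, -0.15 to 0.34 for CR43461, -0.12 to 0.26 for CR30055, -0.22 to 0.0118 for CR42794, -0.13 to 0.17 for CR45517, -0.47 to 0.0904 for CR31044, -0.39 to 0.0604 for asRNA:CR43629, -0.53 to 0.26 for noe, -0.66 to 0.43 for CR31781, -0.0095 to 0.26 for CR32218 and -0.13 to 0.38 for CR43301. Depth limits what can be said of roX2, with 10 counts in all, and of CR45570 in tumour libraries, with 3.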

Other observations

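Among long noncoding RNAs below the level threshold, flam, the source locus of piRNAs that silence transposable elements in ovarian somatic cells, was at 1.52, 1.36 and 1.05 CPM in tumour against 10.8, 3.95 and 13.4 CPM in control libraries, with no overlap between groups (log2 fold change -2.84 ± 0.46, adjusted p = 0.00389, edgeR). The female germline and eggshell markers, which a dissection can carry along, summed to 4.33 to 42.9 CPM in tumour and 102 to 194 CPM in control libraries. Only the eggshell genes among them fell by edgeR, and the part of these tissues in the level of flam was not tested. let7C, the host transcript of the let-7 microRNA cluster, was at 2.94, 2.36 and 2.52 CPM in tumour against 2.79, 3.06 and 2.10 CPM in control libraries and did not pass (adjusted p = 0.967, edgeR).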
